A study of Mus musculus with 16 samples.

Results

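The genes described here are the receptors that bind the constant part of IgG and the adaptor chains through which receptors of this kind signal: Fcgr1, Fcgr2b, Fcgr3, Fcgr4, Fcgrt, Fcer1g and Tyrobp. They were chosen by name, with earlier results of these data known, and are 7 of the 31053 genes in the count matrices. All 7 had UMIs (unique molecular identifiers, each standing for 1 captured mRNA) in all 16 libraries. They were followed across marker-gated immune cell classes and across 4 groups of tumors.

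The mice were C57BL/6J, 6 to 8 weeks old, and carried a subcutaneous tumor grown from 200000 MC38 cells, a mouse colorectal carcinoma line, or 5000000 Panc02-SIY cells, a mouse pancreatic carcinoma line that expresses the SIY peptide. Tumors of each line were left untreated (MC38_NT, Panc02-SIY_NT) or given 1 dose of 12 Gy at about 5 mm in diameter and taken 24 h later (MC38_RT, Panc02-SIY_RT). Live CD45+ cells, the leukocytes of the tumor, were sorted after magnetic enrichment and profiled by droplet 3′ single-cell RNA-seq, with 4 libraries in each group. The sources used here differ on whether a group was 4 or 3 animals and do not tie libraries to animals, so p-values measure only the spread between these libraries.

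Fcγ receptors couple antibody-coated targets to the effector functions of myeloid and NK cells. Fcgr1, the high-affinity receptor, and Fcgr3 and Fcgr4, which bind immune complexes, are activating and depend on the Fc receptor γ chain encoded by Fcer1g, whose ITAM motif recruits Syk. Fcgr2b is the inhibitory receptor: its ITIM motif recruits the phosphatase SHIP-1. Fcgrt encodes the neonatal Fc receptor, an MHC class I-like protein that returns endocytosed IgG to the cell surface, and Tyrobp encodes DAP12, a second ITAM chain used by TREM-family and NK receptors.

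The matrices held 28678 barcodes, and in MC38 the same barcodes recurred across libraries. The 9843 MC38 barcodes were 2632 distinct sequences, of which 1239 were in several libraries and 769 in all 8, and the median overlap of 2 libraries was 83.3% of barcodes in MC38 and 5.54% in Panc02-SIY. Each barcode was therefore kept only in the library of its tumor where it had the most UMIs, which left 20768 barcodes and 1385711 to 43708746 UMIs a library. Shared MC38 barcodes had a median of 76.4% of their UMIs in the library that kept them. By library this median ran from 45.6% (MC38_RT library 1) to 86.6% (MC38_NT library 4). Whether each shared barcode was kept in its true library and arm was not tested. Between 72.9% and 92.8% of kept barcodes a library had a UMI of Ptprc, the gene of CD45. A class gate required 3 of 8 class markers and a lead of 2 over the next class. None of the 7 genes was a marker. The gates took 15864 barcodes (76.4%), 4007 of them as macrophages, of which 1141 lay at the limit of the gate. The ungated share differed by group. It was 31.1 to 37.4% over untreated and 40.8 to 44.0% over irradiated MC38 libraries, without overlap. In Panc02-SIY its mean was 23.0% untreated and 20.4% irradiated. Its part in the comparisons of gated classes was not tested.

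In Panc02-SIY, where most classes held enough barcodes, the 7 genes divided the leukocyte classes in different ways. Levels between classes are given as CPM, the UMIs of a gene divided by all UMIs of the class and scaled to a common total, as the mean of 8 libraries unless stated. UMI counts from the 3′ end were not divided by gene length, and capture can differ between genes, so the order of classes within a gene is firmer than the order of genes within a class. That order is relative to all UMIs of each class and is not an order of UMIs per cell. Neighbouring classes were compared by a two-sided exact paired sign-flip permutation test over libraries on log2(CPM + 10), with Benjamini-Hochberg adjustment over 49 pairs, of which 35 passed 0.1. The smallest p that 8 libraries allow is 0.00781.

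Fcgr1 was a gene of macrophages and monocytes. It stood at 197 ± 42.8 CPM (SD) in the macrophage gate and 196 in the monocyte gate, which did not differ by the exact test (adjusted p = 0.638), and at 21.8 CPM in neutrophils (adjusted p = 0.0273 against monocytes, lower in 8 of 8 libraries). NK cells were at 1.43 CPM, and no B cell-gated barcode had an Fcgr1 UMI in the 7 libraries compared.

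Fcgr3 and Fcgr4 both reached neutrophils, but in opposite order. Fcgr3 was highest in neutrophils at 562 CPM, above monocytes at 422 CPM in 8 of 8 libraries (exact adjusted p = 0.0273), while monocytes and macrophages (348 CPM) did not differ beyond their spread (exact adjusted p = 0.135). Fcgr4 was highest in macrophages at 1239 CPM, above neutrophils at 707 CPM in 7 of 8 libraries (exact adjusted p = 0.0365), with monocytes at 175 CPM and cDC at 33.8 CPM below them. Fcgr3 in NK cells, where it is the receptor of antibody-dependent killing, was 40.0 CPM, lower than in macrophages in 8 of 8 libraries.

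Fcgr2b, the inhibitory receptor, was the Fcγ receptor of B cells. Its level was 375 CPM in monocytes, 243 in macrophages, 130.01 in B cells (n = 7) and 121 in neutrophils. Monocytes passed macrophages in 6 of 8 libraries (exact adjusted p = 0.0837), and neither the macrophage and B cell pair (0.219) nor the B cell and neutrophil pair (0.489) passed the test. NK cells were at 16.4 CPM and T cells at 4.43 CPM. B cells had 2.13 CPM of Fcgr3 and 9.64 CPM of Fcgr4.

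Fcgrt was highest in macrophages and next in conventional dendritic cells of Panc02-SIY. It stood at 150.2 CPM in macrophages and 74.1 CPM in cDC (exact adjusted p = 0.0365, lower in 7 of 8 libraries), and at 25.8 CPM in monocytes, below cDC in 8 of 8 libraries. It was the only receptor of the 5 for which cDC were the second class in this order. Among cDC, those gated as cDC1 held 91.7 CPM of Fcgrt and mregDC, a mature state of dendritic cells, 21.8 CPM (5 libraries each). That difference was not tested.

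The adaptors were the most abundant of the 7 genes and the only ones at high levels in NK cells. Fcer1g fell in steps from macrophages at 4608 CPM through neutrophils at 3562 and monocytes at 3025 to NK cells at 2002, each step past the exact test (adjusted p = 0.0522, 0.0365 and 0.0273). Tyrobp was highest in neutrophils at 5738 CPM, above monocytes at 3254 CPM, which in turn passed macrophages at 2260.3 CPM, both in 8 of 8 libraries. Macrophages and NK cells at 1976 CPM did not differ in Tyrobp beyond their spread (exact adjusted p = 0.157). Basophil- or mast cell-gated barcodes, in 5 libraries, held 2164 ± 577 CPM of Fcer1g, the γ chain of the IgE receptor, and 2569 ± 792 of Tyrobp, with 0.826 CPM of Fcgr1.

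**Figure D1:**
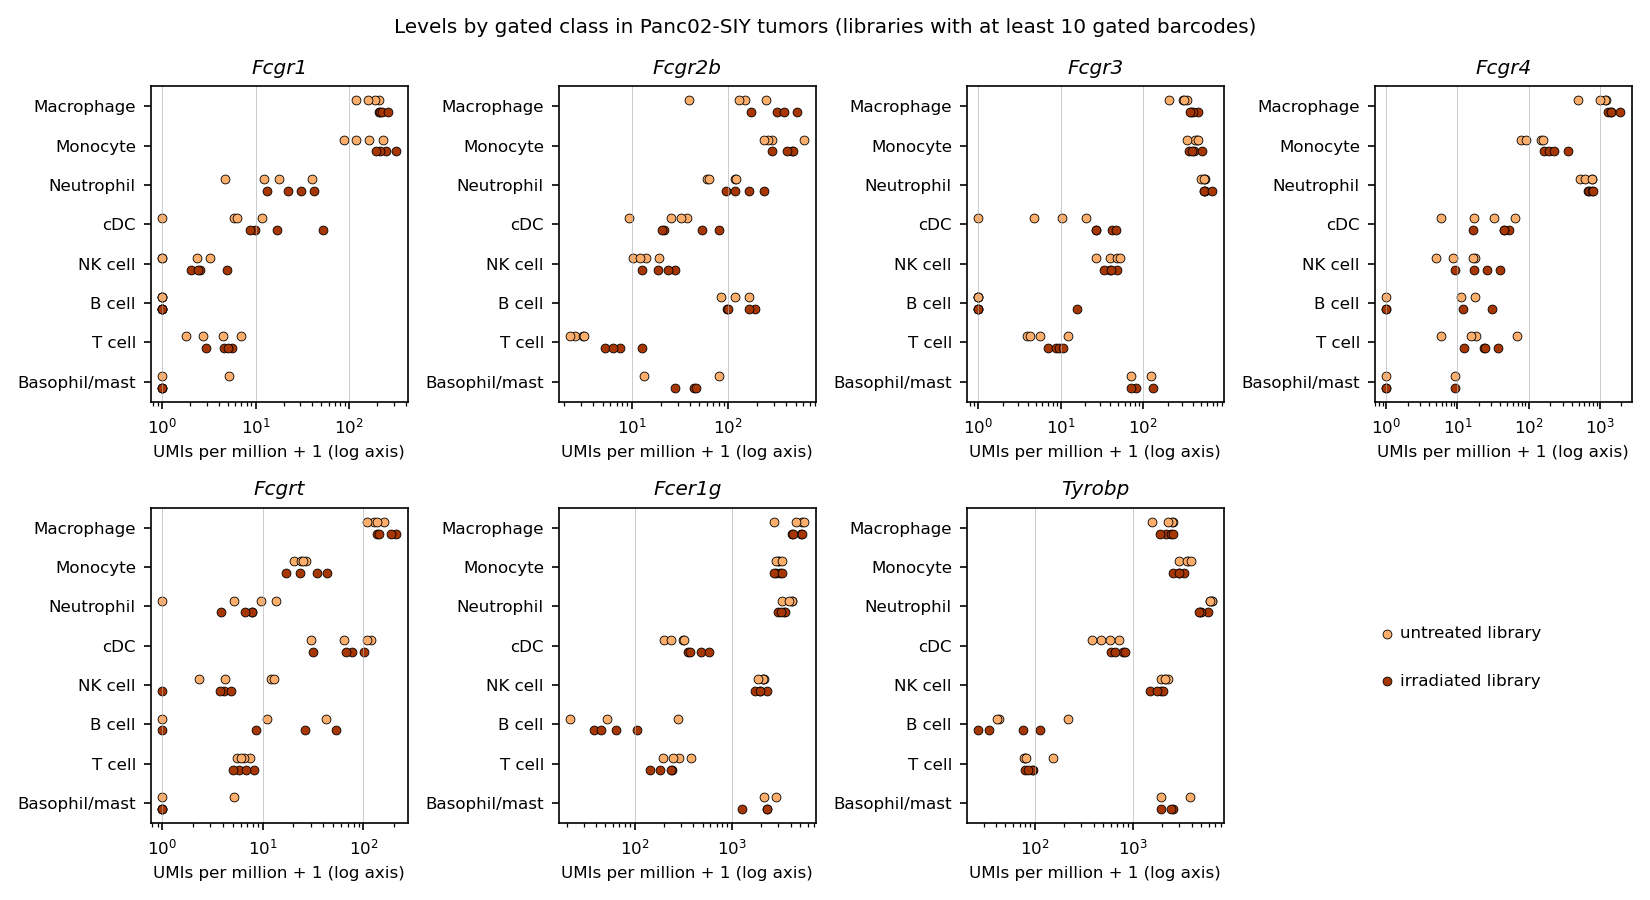
Level of each of the 7 genes in Panc02-SIY tumors, in CPM + 1 on a log axis, by gated class; each point is 1 library with at least 10 gated barcodes, pale for untreated and dark for irradiated. Fcgr1 sits high in macrophages and monocytes, Fcgr3 in neutrophils too, and Fcer1g and Tyrobp also in NK cells and basophils or mast cells.

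MC38 tumors held few gated barcodes outside macrophages (6 neutrophils in each group, and 39 untreated and 57 irradiated NK cells), so 7 pairs were tested there, all of macrophages with NK or T cells. Macrophages exceeded the NK or T cells in each of the 7 genes in every library compared, 6 or 7 of them (exact adjusted p = 0.0365 or 0.0547). For Fcgr2b these levels were 931 CPM in macrophages and 49.5 CPM in NK cells. The monocyte gate of MC38, in 5 libraries, was not among the pairs tested. It reached 967 ± 264 CPM of Fcgr1, between 744 and 1398, above the macrophage range of 396 to 676 CPM. Tyrobp too was higher there, at 2954 untreated and 2799 irradiated CPM against 2026 and 2105 in macrophages. The cDC gate of MC38, in 2 libraries, was not tested either. It held 97.7 and 119.6 CPM of Fcgrt, above the macrophage range of 38.6 to 97.0 CPM, unlike the order in Panc02-SIY.

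The 7 genes lie on 3 chromosomes in mm10. Fcgr2b (chr1:170958617-170976547, minus strand), Fcgr4 (chr1:171018920-171029761, plus strand), Fcgr3 (chr1:171051174-171064935, minus strand) and Fcer1g (chr1:171229572-171234365, minus strand) form a cluster on chromosome 1. Fcgr1 lies at chr3:96282909-96293969 on the minus strand, Fcgrt at chr7:45092990-45103851 on the minus strand and Tyrobp at chr7:30413760-30417585 on the plus strand. A limit on Fcgr4 counts is that 3.4% of the 31-base words of its last 500 transcript bases also occur in other genes, and Fcgr2b and Fcgrt each overlap a gene on the other strand (Gm38204 and Gm45669), while Fcgr3 and Fcgr4 each overlap a small gene on the same strand (Mir6546 and Gm26110).

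The promoters of Fcgr1 and Fcgr4 are shown because both are activating receptors of macrophages that parted between the tumors, as described further on. The sequences are RefSeq promoters of GRCm38.p6, 124 bases ending shortly before the annotated start, and capitals mark matches to the STAT word TTCNNNGAA and to TTCCTC, the other strand of the PU.1 core GAGGAA.
Fcgr1, chr3:96293976-96294099, minus strand: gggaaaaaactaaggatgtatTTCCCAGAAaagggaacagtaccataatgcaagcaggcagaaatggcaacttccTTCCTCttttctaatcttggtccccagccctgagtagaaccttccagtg
Fcgr4, chr1:171018796-171018919, plus strand: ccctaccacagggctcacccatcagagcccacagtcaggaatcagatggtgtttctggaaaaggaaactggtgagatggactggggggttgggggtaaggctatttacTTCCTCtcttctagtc
Both windows hold the PU.1 word, beginning 55 bases before the start in Fcgr1 and 22 in Fcgr4, and the Fcgr1 window alone of these holds the STAT word, beginning 109 bases before the start. In the 250 bases before the start on either strand, TTCNNNGAA occurred in 7.02% and GAGGAA in 23.3% of 32851 promoters. Fcgr3 also held GAGGAA, and Fcgr2b, Fcgrt and Fcer1g held neither word. The words overlap no other searched word, and a match is a description of letters and not of a bound site.

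The question of the irradiated groups is what changes in the tumor's leukocytes 1 day after radiation. Within macrophage-gated barcodes, the Fcgr genes were higher after radiation in MC38, the inhibitory Fcgr2b among them, though Fcgr2b was not called. Levels in these comparisons are CPM after TMM scaling. A call required a fold above 1.3 and, in edgeR's quasi-likelihood test over all genes, a p under 0.1 after Benjamini-Hochberg adjustment. Of the 7 genes, 3 were called, all higher, against 8.05% of the 12028 genes tested. This share, like all shares of genes called below, counts both directions, and 510 genes were called higher here. The median log2 difference was 0.56 over the 7 genes and 0.02 over all genes tested.

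Fcgr1 in MC38 macrophages was 446, 439, 419 and 479 CPM in the untreated libraries and 618, 771, 584 and 685 CPM in the irradiated ones. The groups did not overlap. The log2 difference was 0.58 ± 0.13 (SE, adjusted p = 0.0123), a 1.49-fold rise.

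Fcgr3 was 729, 703, 562 and 684 CPM untreated and 1007, 1077, 911 and 953 CPM irradiated. Every irradiated library lay above every untreated one. It rose by 0.56 ± 0.14 on the log2 scale (adjusted p = 0.0161).

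Fcgr4 in MC38 macrophages was 242, 424, 166 and 318 CPM untreated and 673, 831, 478 and 581 CPM irradiated. The groups again did not overlap, and the rise was 2.23-fold (log2 1.16 ± 0.31, adjusted p = 0.0451). The call was lost without MC38_NT library 1 (adjusted p = 0.129), without MC38_RT library 1 (0.104) or without MC38_RT library 2 (0.14).

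Fcgr2b, the inhibitory receptor, was 908, 790, 745 and 740 CPM untreated and 1285, 1301, 1135 and 1159 CPM irradiated. The groups did not overlap, but with a spread estimated over all 4 groups the difference of 0.62 ± 0.40 was not called (adjusted p = 0.464). In a fit of the MC38 groups alone it was 0.60 ± 0.09 (adjusted p = 0.000194).

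Fcgrt and the adaptors were not called in MC38 macrophages. Fcgrt had a log2 difference of -0.13 ± 0.19, Fcer1g of 0.17 ± 0.16 and Tyrobp of 0.17 ± 0.14 (adjusted p = 0.79, 0.653 and 0.578). Fcer1g ranged from 3081 to 3710.1 CPM untreated and from 3455 to 4308 CPM irradiated, so the groups overlapped.

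These MC38 differences were smaller when every barcode was kept in every library. Fcgr1 was then 0.43 (adjusted p = 0.0721), and the calls of Fcgr3 (0.41, 0.113) and Fcgr4 (0.78, 0.151) were lost. Markers of monocytes moved with the comparison: all 8 were detected in the macrophage gate, with a summed level of 1381 to 1869.6 CPM in untreated and 2007 to 2431 CPM in irradiated MC38 libraries. Their part in the result was not tested.

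In Panc02-SIY macrophages 1 of the 7 genes was called with radiation, against 4.5% of genes tested, and the median log2 difference of the 7 was 0.43. The count was 4 in DESeq2 (Fcgr1, Fcgr2b, Fcgr3 and Fcgr4), 3 with all barcodes kept and 0 in a fit of the Panc02-SIY groups alone. The 4.5% belongs to the main fit, and shares of all genes called in these other fits are not given here. Fcgr3 was 282, 323, 285 and 186 CPM untreated and 433, 362, 371 and 355 CPM irradiated, without overlap. The rise was 0.50 ± 0.14 on the log2 scale (adjusted p = 0.0602). It was lost without Panc02-SIY_NT library 4 (adjusted p = 0.244) or without Panc02-SIY_RT library 1 (0.14), 2 (0.111) or 3 (0.135).

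Fcgr2b had the largest log2 difference of the 7 in Panc02-SIY macrophages and also the largest SE. It was 231, 139, 116 and 35.4 CPM untreated and 475, 298, 348 and 168 CPM irradiated. The groups overlapped in 1 irradiated library, and the log2 difference of 1.41 ± 0.44 missed the threshold (adjusted p = 0.121). Taken by library number, each irradiated library was above the untreated one, a pairing that this fit did not use. Without Panc02-SIY_NT library 1 or Panc02-SIY_RT library 4 it passed (0.054 and 0.0658).

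Fcgr4 was 455, 1132, 1058 and 913 CPM untreated and 1210.3, 1330.4, 1306 and 1873 CPM irradiated in Panc02-SIY macrophages. All irradiated libraries were above all untreated ones, yet the difference was not called (log2 0.68 ± 0.30, adjusted p = 0.276). Fcgr1 showed 0.43 ± 0.14 (0.11), and passed without Panc02-SIY_NT library 2 (0.0432). Fcgrt, Fcer1g and Tyrobp differed by 0.33, 0.08 and 0.04 (adjusted p = 0.379, 0.856 and 0.939). Markers of other classes moved with this comparison too, with all 8 of each list detected. In the macrophage gate, markers of mregDC, a mature state of dendritic cells, summed to 33.7 to 65.6 CPM untreated and 85.8 to 108 CPM irradiated, without overlap, and monocyte markers to 299 to 873 and 378 to 983 CPM, with overlap. Their part in the result was not tested.

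In macrophages, none of the 7 genes was called by edgeR in the interaction, the test of whether the radiation change differed between tumors (0.00831% of genes tested were called, and none of the 7 had an unadjusted p below 0.05; DESeq2 also called 0). The difference between the changes, MC38 minus Panc02-SIY, was -0.79 ± 0.59 for Fcgr2b and 0.48 ± 0.43 for Fcgr4 (adjusted p = 0.98 and 0.986).

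**Figure D2:**
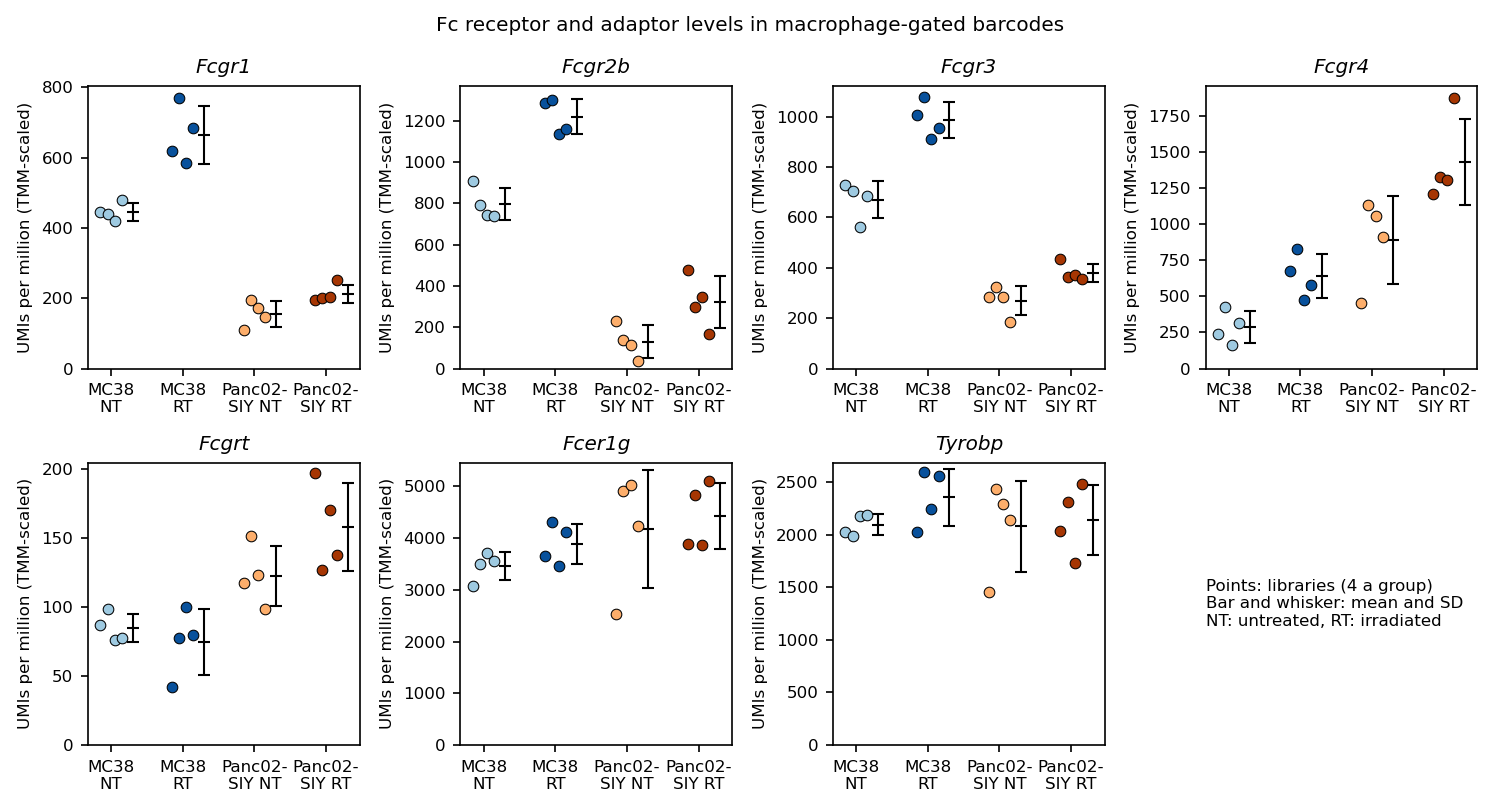
TMM-scaled CPM of each gene in macrophage-gated barcodes; each point is 1 library (4 a group), with the group mean and SD beside it. Fcgr1, Fcgr2b and Fcgr3 are higher in MC38 than in Panc02-SIY, and Fcgr4 and Fcgrt are lower. Fcgr3 and Fcgr4 are higher in irradiated (RT) than untreated (NT) libraries of both tumors without overlap, though Fcgr4 was not called in Panc02-SIY.

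The larger contrast was between the tumors, where the macrophage receptors split. In untreated tumors, 5 of the 7 genes were called in macrophages, against 42.9% of genes tested: Fcgr1, Fcgr2b and Fcgr3 higher and Fcgr4 and Fcgrt lower in MC38. In irradiated tumors the same 5 were called in the same directions, against 43.2% of genes tested. The comparisons use different libraries, but the same fit with a shared estimate of spread. MC38 libraries of both arms also shared barcodes, so the arms are not shown to be independent. All 5 had groups that did not overlap in either arm, a trait that was not counted over all genes. The median log2 difference of the 7 was 0.01 untreated and 0.14 irradiated, against -0.01 and -0.02 over all genes tested.

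Fcgr2b showed the largest difference. Untreated macrophages held 796 ± 78.4 CPM in MC38 and 130.4 ± 80.6 CPM in Panc02-SIY (SD, n = 4 each), a 6.72-fold difference (log2 2.75 ± 0.45, adjusted p = 0.000348). After radiation the levels were 1220.0 ± 84.8 and 322 ± 127 CPM, a 3.88-fold difference (log2 1.95 ± 0.42, adjusted p = 0.00278).

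Fcgr1 and Fcgr3 differed by similar amounts. Fcgr1 was 2.81-fold higher in untreated and 3.104-fold higher in irradiated MC38 macrophages (adjusted p = 4.38e-08 and 1.42e-08). Fcgr3 was 2.50-fold and 2.61-fold higher (adjusted p = 2.14e-07 and 1.28e-07).

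Fcgr4 went the other way. Untreated macrophages held 288 ± 110.1 CPM in MC38 and 889 ± 304 CPM in Panc02-SIY, 3.13-fold lower in MC38 (log2 -1.64 ± 0.31, adjusted p = 0.000938). After radiation the levels were 641 ± 149.9 and 1430 ± 299.7 CPM, 2.24-fold lower (adjusted p = 0.00896). The lowest Panc02-SIY library, at 455 CPM, lay just above the highest untreated MC38 library, at 424 CPM.

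Fcgrt was lower in MC38 as well, at 84.7 ± 10.3 against 122 ± 21.6 CPM untreated (log2 -0.54 ± 0.19, adjusted p = 0.0284) and 74.6 ± 24.0 against 158 ± 32.0 CPM irradiated (log2 -1.003 ± 0.19, adjusted p = 0.000401). The untreated groups nearly touched, at up to 98.54 CPM in MC38 and from 98.72 CPM in Panc02-SIY. The untreated call was lost without Panc02-SIY_NT library 2 (adjusted p = 0.11). The adaptors did not follow the receptors: Fcer1g differed by -0.27 ± 0.16 untreated and -0.19 ± 0.16 irradiated, and Tyrobp by 0.01 ± 0.14 and 0.14 ± 0.14, with none called. Fcer1g passed without Panc02-SIY_NT library 1 (adjusted p = 0.00251), whose 99 macrophage barcodes gave the lowest Fcer1g level, 2542 CPM, against 4225 to 5032 CPM in the other 3.

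The tumors' macrophage gates also differed in depth and in their markers. Median UMIs per gated barcode were 23588 and 19490.0 in MC38 (untreated and irradiated) and 2354 and 3498 in Panc02-SIY. The 8 macrophage markers, all detected, summed to 24601 to 31227 CPM over MC38 libraries and 10448 to 17054 over Panc02-SIY libraries. Markers of other classes in the macrophage gate parted as well, without overlap. Monocyte markers summed to 1381 to 2431 CPM in MC38 and 299 to 983 CPM in Panc02-SIY, neutrophil markers to 73.3 to 117 and 133 to 295 CPM, and cDC1 markers to 249 to 496 and 650.2 to 1226 CPM. All 8 of each list had UMIs, apart from Gcsam of the cDC1 list, at 0 in MC38. Their part in these differences was not tested. In UMI sums thinned to the mean UMIs per barcode of the lowest library, 5 genes were again called in each arm. This thinning came after gating and leaves expected levels unchanged, so it cannot show what depth did to the gates. The part of depth was not tested. Tumor line, the implanted cell number and the recurrence of barcodes cannot be told apart in this contrast.

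The makeup of Fcγ receptor UMIs put the split in 1 measure. Within the UMIs of the 4 Fcgr genes in macrophages, Fcgr2b made up 36.3 ± 3.4% in untreated and 34.8 ± 1.7% in irradiated MC38 libraries (SD, n = 4), against 9.78 ± 8.1% and 14.0 ± 5.9% in Panc02-SIY. For Fcgr4 the share was 12.9 ± 4.1% untreated and 18.1 ± 2.3% irradiated in MC38, against 60.4 ± 12.6% and 60.6 ± 7.7% for Panc02-SIY. The lowest MC38 share of Fcgr2b, 32.7%, was above the highest Panc02-SIY share, 21.5% (87 of 405 UMIs, 95% exact interval 17.6 to 25.8%, which covers counting error only). These shares are a description and were not tested.

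Panc02-SIY libraries were uneven in this makeup. Fcgr2b made up 21.5, 7.77, 7.11 and 2.76% in the 4 untreated libraries and 20.5, 13.6, 15.6 and 6.35% in the irradiated ones. Library 1 was the highest and library 4 the lowest of each arm, and the ranges overlapped. In monocyte-gated barcodes the tumors parted on another gene: Fcgr1 made up 42.2 ± 13.2% (n = 2) and 37.1 ± 10.3% (n = 3) in MC38 and 14.3 ± 4.9% and 18.6 ± 2.3% in Panc02-SIY, while Fcgr2b shares were 20.3, 25.8, 32.6 and 31.1% in the same order.

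**Figure D3:**
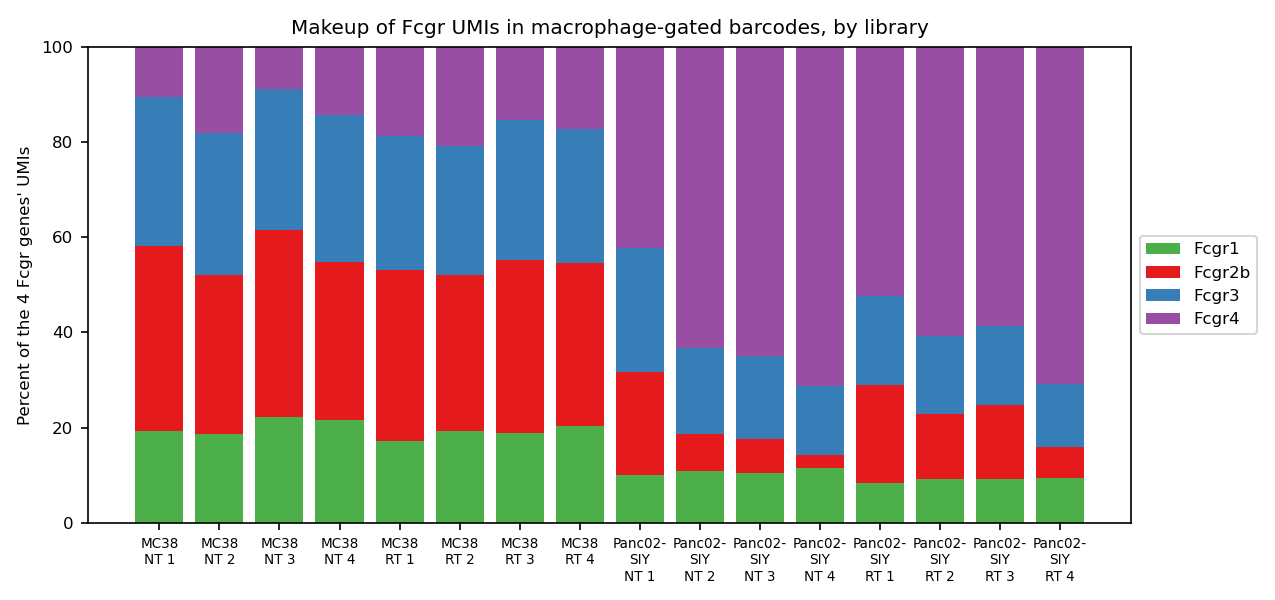
Percent of the UMIs of Fcgr1, Fcgr2b, Fcgr3 and Fcgr4 that each gene contributed in the macrophage-gated barcodes of each library, 1 bar per library. Fcgr2b and Fcgr3 make up most UMIs in MC38, while Fcgr4 makes up 42.2 to 71.3% in Panc02-SIY.

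Per barcode, the same genes were seen in more or fewer macrophages. Barcodes were thinned to 1000 UMIs each and shallower ones left out, which removed 58 untreated and 43 irradiated MC38 macrophages, and 389 untreated and 256 irradiated ones from Panc02-SIY. An Fcgr4 UMI was then found in 17.99% of untreated and 32.4% of irradiated MC38 macrophages and in 54.4% and 68.3% of Panc02-SIY macrophages. For Fcgr2b the share was 47.0% untreated and 55.3% irradiated in MC38, against 6.90% and 15.99% of the Panc02-SIY macrophages. These shares pool the libraries of a group. Before shallow barcodes were left out, library 4 gave 1142 of 1766 untreated and 594 of 1069 irradiated Panc02-SIY macrophages. That library had the lowest Fcgr2b level of each Panc02-SIY arm. Intervals of each share are exact and cover counting error only (for Fcgr2b in Panc02-SIY, 5.62 to 8.37% and 13.5 to 18.7%).

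T cells were used as a comparison class with low levels of the Fcγ receptors. Whether their UMIs came from T cells or from other cells was not tested. At the same 1000 UMIs, with median depths of 5775 to 8238 UMIs before thinning, Fcgr4 was found in 0 of 76 untreated MC38 T cells, which allows a share of up to 3.95%, and in 3.06%, 2.12% and 1.78% of T cells in the other groups. Fcgr2b was found in 3.95% and 6.12% of MC38 and 0.284% and 0.462% of Panc02-SIY T cells. Fcer1g was found in 26.3% and 23.5% of MC38 and 14.6% and 12.3% of Panc02-SIY T cells, and in 6.90% and 2.54% of Panc02-SIY B cells. Without thinning, an Fcgr4 UMI was found in 69.0%, 76.1%, 73.0% and 81.1% of macrophages, in the order MC38 untreated and irradiated, Panc02-SIY untreated and irradiated.

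Macrophages with none of the 4 Fcgr genes among 1000 UMIs were 20.9% of barcodes in untreated and 14.5% in irradiated MC38, and 31.1% and 16.4% in Panc02-SIY. Those with UMIs of 3 of the 4 genes made up 10.0% (untreated) and 19.6% (irradiated) of MC38 macrophages, against 4.58% and 9.96% for Panc02-SIY. In Panc02-SIY neutrophils 37.0% and 31.6% had none. The shares were not compared by a test, since barcodes of 1 library are not replicates. They too pool the libraries of a group, and library 4 weighs most among Panc02-SIY macrophages.

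Over all CD45+ barcodes of a library, the 7 genes add up the classes present. In bulk sums, fewer cells of a type and less RNA per cell cannot be told apart. Macrophages were 49.3 ± 6.9% and 37.9 ± 2.2% of kept MC38 barcodes and 15.3 ± 7.6% and 11.4 ± 4.8% of Panc02-SIY barcodes (untreated and irradiated). T cells were 6.03% and 7.52% of MC38 and 42.5% and 33.9% of Panc02-SIY barcodes.

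With radiation in MC38, 1 of the 7 genes was called in all CD45+ barcodes, against 11.7% of 12447 genes tested. Fcgr3 was 644, 639, 532 and 676 CPM untreated and 749.5, 922, 748 and 845 CPM irradiated, without overlap. Its fold of 1.31 only just passed the limit (log2 0.39 ± 0.13, adjusted p = 0.0642), and the call was lost on leaving out 13 of the 16 libraries 1 at a time (adjusted p from 0.0537 to 0.181). Fcgr1, Fcgr2b and Fcgr4 also did not overlap between the arms but were not called (log2 0.56, 0.46 and 1.00, adjusted p = 0.316, 0.204 and 0.215).

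With radiation in Panc02-SIY, 3 of the 7 genes were called in all CD45+ barcodes, all higher, against 14.7% of genes tested. Fcgr2b was 36.7, 42.4, 42.9 and 17.3 CPM untreated and 135, 90.6, 135 and 89.7 CPM irradiated. The lowest irradiated library was above the highest untreated one, and the rise was 3.25-fold (log2 1.70 ± 0.23, adjusted p = 0.00042). Fcgr3 rose 1.87-fold (log2 0.90 ± 0.13, adjusted p = 0.000538), from 60.3 to 85.7 CPM over the untreated libraries to 120.2 to 168 CPM. Tyrobp rose 1.31-fold (log2 0.40 ± 0.11, adjusted p = 0.0274), with groups that overlapped. None of these calls was lost on leaving out any 1 library.

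Cell shares moved in the same comparison. Monocytes, the class with the highest Fcgr2b level, were 1.19 ± 0.91% of untreated and 4.31 ± 0.80% of irradiated Panc02-SIY barcodes. Neutrophils, the class with the highest Fcgr3 and Tyrobp levels, were 7.07 ± 2.2% and 12.2 ± 3.4%. Their part in the rise of these genes was not tested.

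Between the tumors, 6 of the 7 genes were higher in MC38 over all CD45+ barcodes in both arms. Of all genes tested, 61.1% were called untreated and 58.5% irradiated in either direction, with 3622 and 3723 of 12447 higher in MC38. Fcgr2b was 21.1-fold and 8.93-fold higher, Fcgr1 12.6-fold and 10.6-fold, and Fcgr3 8.24-fold and 5.79-fold. Fcer1g (2.44-fold and 2.19-fold), Tyrobp (2.26-fold and 1.86-fold) and Fcgrt (2.40-fold and 1.82-fold) differed less. Fcgr4 was the exception, at 262 ± 99.4 against 209.6 ± 126 CPM untreated and 524 ± 131 against 328 ± 185 CPM irradiated (adjusted p = 0.583 and 0.235). It passed in the irradiated arm without Panc02-SIY_RT library 4 (adjusted p = 0.0689). Macrophages were the larger share of barcodes in MC38, as given above, and the part of that share in these differences was not tested.

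The radiation change of Fcgr2b was smaller in MC38 than in Panc02-SIY over all CD45+ barcodes, with a difference of -1.24 ± 0.31 on the log2 scale that missed the threshold (adjusted p = 0.129). None of the 7 was called in this interaction, where 0.345% of genes tested were called, although Fcgr2b and Fcgr3 had an unadjusted p below 0.05 (0.00112 and 0.0115). Of all 12447 genes tested, 1472 were below 0.05 in this way. DESeq2 called Fcgr2b (adjusted p = 0.0129), and keeping all barcodes called Fcgr2b (0.0543) and Fcgr3 (0.0999). Leaving out Panc02-SIY_NT library 4, Panc02-SIY_RT library 2 or Panc02-SIY_RT library 4 also brought Fcgr2b past it (0.0281, 0.0865 and 0.0983).

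**Figure D4:**
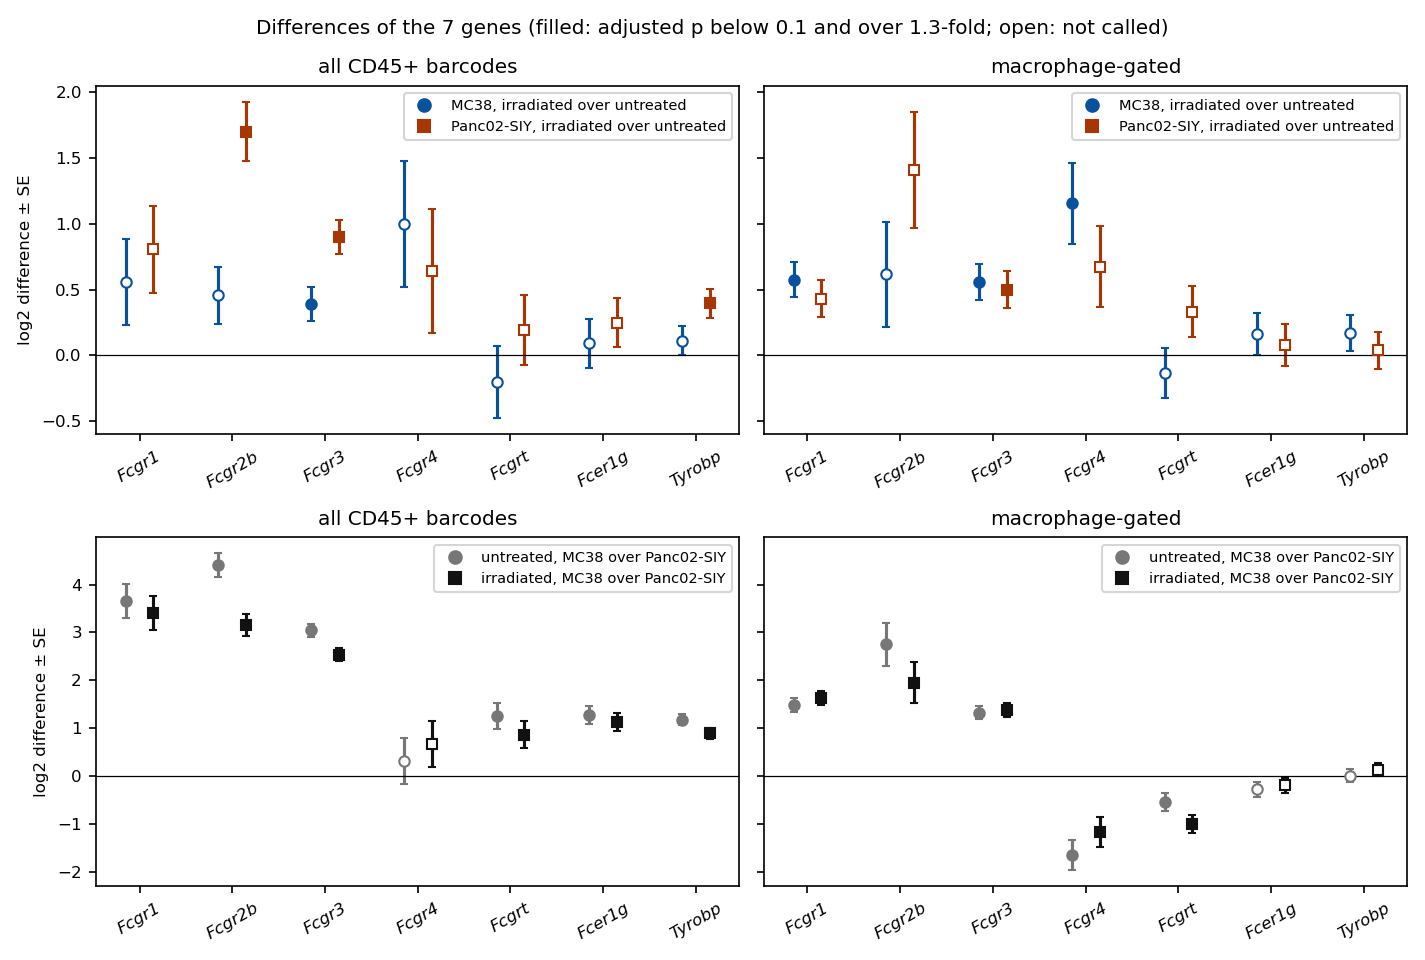
Fitted log2 difference of each gene with its SE, over all CD45+ barcodes (left) and macrophage-gated barcodes (right), for irradiated over untreated tumors (top) and MC38 over Panc02-SIY (bottom); filled points were called at an adjusted p below 0.1 and over 1.3-fold. Fcgr4 and Fcgrt lie below 0 between tumors in macrophages but not over all CD45+ barcodes.

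In monocyte-gated barcodes, no gene of the 7 was called with radiation by edgeR in either tumor, where 0% of the 8191 genes tested were called in MC38 and 0.281% in Panc02-SIY. MC38 contributed 2 untreated and 3 irradiated libraries. At an unadjusted p below 0.05 there was 1 in MC38 (Fcgr3, 0.0308) and there were 3 in Panc02-SIY (Fcgr1, Fcgr4 and Tyrobp, 0.0261, 0.0107 and 0.042). Over all 8191 genes tested, 495 in MC38 and 692 in Panc02-SIY were below 0.05 in this way. DESeq2's counts stayed at 0.

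Between tumors, untreated monocytes had 2 of the 7 called, against 13% of genes tested, both higher in MC38. Fcgr1 was 801 and 1183 CPM in MC38 and 77.9, 158, 114 and 227 CPM in Panc02-SIY (log2 2.75 ± 0.30, adjusted p = 5.85e-06). Fcgr4 was 512 and 219 CPM in MC38 and 69.3, 146, 86.4 and 155 CPM in Panc02-SIY, and its call (log2 1.65 ± 0.40, adjusted p = 0.016) was lost without MC38_NT library 2 (0.235). Thus Fcgr4 had opposite signs in the monocyte and macrophage gates of untreated tumors, a difference between gates that was not tested.

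In irradiated tumors 3 of the 7 were called in monocytes, against 17.6% of genes tested, again all higher in MC38. Fcgr1 was 4.86-fold higher (adjusted p = 4.39e-06), Fcgr2b 2.07-fold (0.0232) and Fcgr3 1.87-fold (0.000726). Fcer1g had an adjusted p of 0.072 with a fold of 1.29, below the limit on size. Macrophage markers, all 8 detected, summed to 2207 to 5803 CPM in MC38 monocytes and 1198 to 2551 CPM in Panc02-SIY monocytes, and their part was not tested.

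Neutrophils and cDC could be compared only between the arms of Panc02-SIY. Of the 7 genes none was called in neutrophils by edgeR (0.0264% of 7576 genes tested). Before adjustment 366 of all genes tested passed 0.05, and of the 7 Fcgr2b alone did (log2 0.77 ± 0.27, adjusted p = 0.848). Tyrobp was 6146 to 6563 CPM untreated and 4692 to 6034 CPM irradiated (log2 -0.28 ± 0.14, adjusted p = 0.955). These groups did not overlap, a trait that was not counted over all genes.

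In cDC none of the 7 was called (0.167% of 8369 genes tested), with Fcgr3 and Fcer1g under 0.05 before adjustment, as were 615 of all genes tested. Fcgr3 was 0, 20.3, 9.47 and 3.87 CPM untreated, from 0 to 9 UMIs a library, and 39.6, 27.2, 43.9 and 27.0 CPM irradiated, from 4 to 24 UMIs. The groups did not overlap, and the log2 difference was 1.97 ± 0.57 (adjusted p = 0.359). Fcer1g differed by 0.70 ± 0.24 (adjusted p = 0.496). The makeup of the gate moved too: cDC1 were 96 untreated and 57 irradiated barcodes, cDC2 4 and 30, and mregDC 34 and 54. In the 1 library with enough cDC2, an irradiated one, they held 91.3 CPM of Fcgr3 and 1300.01 CPM of Fcer1g, where cDC1 held 6.85 and 27.1 CPM of Fcgr3 and 181 and 209 CPM of Fcer1g (untreated and irradiated). The part of this makeup in the differences was not tested.

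NK cells carried both adaptors at high levels and little of any receptor. No gene of the 7 was called with radiation, where 0.21% of the 10014 genes tested were called in MC38 and 0.29% in Panc02-SIY. Before adjustment Fcer1g (log2 0.49 ± 0.19) and Tyrobp (0.45 ± 0.19) passed 0.05 in MC38, and Fcgr4 (0.97 ± 0.44) and Fcgrt (-1.58 ± 0.65) in Panc02-SIY, with adjusted p from 0.493 to 0.627. Of all genes tested, 789 in MC38 and 762 in Panc02-SIY passed 0.05 in this way. MC38 contributed 3 libraries of each arm.

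Between tumors, 2 of the 7 genes were called in NK cells in each arm, against 5.41% of genes tested untreated and 11.7% irradiated, and most of these calls rested on few UMIs or few libraries. Untreated, Fcgr2b was 54.9, 83.2 and 49.7 CPM in MC38, on 7, 5 and 5 UMIs, and 9.30 to 18.4 CPM in Panc02-SIY (log2 2.199 ± 0.51, adjusted p = 0.00533). Tyrobp was 1239, 1031 and 2069 CPM in MC38 and 1999.7 to 2295 CPM in Panc02-SIY (log2 -0.58 ± 0.18, adjusted p = 0.0499), a call lost without MC38_NT library 1 (0.239) or 2 (0.249) or without Panc02-SIY_NT library 1 (0.118) or 2 (0.108). Another scaling moved the median gene of this contrast by 0.15 and took the Tyrobp call away. Macrophage markers, all 8 detected, summed to 443 to 1159 CPM in MC38 NK cells and 26.8 to 254 CPM in Panc02-SIY NK cells. Their part in the Fcgr2b difference was not tested.

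In irradiated tumors Fcer1g was 1.45-fold higher in MC38 NK cells, at 2123, 2806 and 3499 CPM against 1678 to 2299 CPM (log2 0.53 ± 0.17, adjusted p = 0.0357). The call was lost without MC38_RT library 3 (0.112) or 4 (0.424), Panc02-SIY_NT library 3 (0.103), or Panc02-SIY_RT library 1 (0.166) or 3 (0.209). Fcgr3 was 46.9, 38.3 and 140.0 CPM in MC38, where 22 of 30 UMIs came from MC38_RT library 4, and 31.6 to 47.3 CPM in Panc02-SIY (log2 1.11 ± 0.36, adjusted p = 0.0408). Without that library the adjusted p was 0.956, and without Panc02-SIY_RT library 3 it was 0.11.

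Other genes of the pathway, from lists of signaling enzymes, inhibitors and paired receptors, moved with radiation only upward in macrophages where called. Of 20 kinases, scaffolds and enzymes of ITAM signaling, 3 rose in MC38, where 510 of 12028 genes tested were called higher (8.05% in either direction). These were Vav3 (log2 0.60, adjusted p = 0.0646) and Gab2 (0.53, 0.0966), an exchange factor and a scaffold, and Syk (0.42, 0.043), the kinase that docks on ITAMs. In Panc02-SIY, where 289 genes were called higher (4.5% in either direction), the Src-family kinases Fgr (0.68, 0.0311) and Lyn (0.48, 0.0971) and the exchange factor Vav1 (0.63, 0.0107) rose. The list's median log2 difference was 0.25 in MC38 and 0.37 in Panc02-SIY, against 0.02 over all genes in each.

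Of 18 other receptors listed as pairing with Fcer1g or Tyrobp, 16 were tested in macrophages and 3 rose in each tumor, against the same 8.05% and 4.5% of all genes. Cd300ld rose by 0.99 in MC38 and 0.73 in Panc02-SIY (adjusted p = 0.00313 and 0.0551) and Pira2 by 0.58 and 0.67 (0.0575 and 0.0685), both receptors that signal through the γ chain. Trem1, an amplifier of inflammation, rose in MC38 (0.66, 0.022), and Trem2, a lipid receptor of tumor macrophages, in Panc02-SIY (0.95, 0.0339). Of 10 inhibitory phosphatases, adaptors and ligases none was called in MC38 and Inpp5d, the gene of SHIP-1, rose in Panc02-SIY (0.42, 0.043). The adaptor Hcst rose in MC38 (0.43, 0.0718). Over these lists, 7 genes rose in each tumor's macrophages, and Cd300ld and Pira2 were the 2 in both.

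Between the tumors the signaling genes of macrophages moved both ways. Among the 20 ITAM signaling genes, 5 were higher and 6 lower in untreated MC38, and 3 higher and 7 lower in irradiated MC38, with a median of -0.18 and -0.21. These are 11 and 10 of 20, near the 42.9% and 43.2% of all genes called. Src was higher (log2 2.55 and 2.26) and Lcp2, the scaffold SLP-76, lower (-1.54 and -1.66), with Card9 higher untreated (1.65) and Pik3r5 lower irradiated (-1.68). Of the 10 inhibitory genes 1 was higher and 2 lower untreated, and 2 higher and 3 lower irradiated, among them Cblb (-1.55 and -1.38), Ptpn6 (-0.48 and -0.66) and Dok3 (0.49 and 0.54). All had adjusted p of 0.00993 or less.

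The paired receptors also moved both ways. Trem2 was 503 ± 46.5 CPM in untreated MC38 macrophages and 14.98 ± 2.6 CPM in untreated Panc02-SIY macrophages (log2 5.12 ± 0.22, adjusted p = 3.71e-13), and 479 ± 72.7 against 27.3 ± 12.2 CPM irradiated (4.11 ± 0.20). Trem1 was also higher in MC38 in both arms (3.75 and 3.62), while Treml4 was lower untreated (-3.45). Siglece, lower irradiated (-3.92), is on this list but has an ITIM of its own and is not known to use either chain. In all, 7 of the 16 listed genes were higher and 5 lower untreated, and 5 and 5 irradiated, with Siglece among the lower ones in both arms. Of all genes tested, 42.9% were called untreated and 43.2% irradiated.

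Of 12 other Fc receptor genes only 5 passed the filter on low counts in macrophages. Fcrl5 had 1 UMI in untreated and 0 in irradiated MC38 macrophages, against 2184 and 2065 UMIs (115.0 ± 53.2 and 157 ± 55.4 CPM) in Panc02-SIY. B cell markers summed to 11.03 to 25.99 CPM in MC38 and 51.3 to 130.4 CPM in Panc02-SIY macrophages, and their part was not tested. Fcrls was higher in MC38, at 270.2 ± 131 against 15.6 ± 23.9 CPM untreated and 81.3 ± 44.0 against 1.59 ± 1.0 CPM irradiated (adjusted p = 0.000448 and 0.00192). Fcrla, at up to 2.71 CPM, was called higher as well (0.0322 and 0.0405), and Cd247 lower untreated (-2.63, 0.0169) on 5 UMIs in MC38.

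Over all CD45+ barcodes, the same lists gave more calls with radiation in Panc02-SIY than in MC38: 11 against 5 of 20 ITAM signaling genes and 11 against 3 of 17 paired receptors, all higher, beside 14.7% and 11.7% of all genes tested. Over the 5 lists, 9 genes rose in MC38 and 23 in Panc02-SIY, and Cd300ld, Fgr, Gab2, Pira2, Syk, Trem1 and Vav3 were the 7 in both. Fcrls was the only listed gene called lower by edgeR, in MC38 (log2 -1.905 ± 0.48, adjusted p = 0.0265), with means of 205.6 CPM untreated and 52.0 CPM irradiated. In the test of the difference between the tumors' radiation changes only Rac2 was called (log2 0.55, adjusted p = 0.0951). The larger count in Panc02-SIY is therefore not shown to be a larger response.

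Across 22 means of a class within a group, the genes most like each member by Pearson correlation of log2(CPM + 10) were sought among 5951 genes. Points of 1 group share libraries, and MC38 gave few classes, so r is a description. Fcgr1 was most like Ms4a6d (r = 0.982) and Msr1 (0.967). Fcgr4 was most like Lair1 (0.954), Slc11a1 (0.953) and Pilra (0.944), and Fcgr3 like Rab20 (0.955), Socs3 (0.953) and Ifi204 (0.95). Fcgr2b was most like Zeb2os (0.922), Ctss (0.916) and Tor3a (0.898), and Fcgrt like Nrp2 (0.934), Idh2 (0.922) and Cpq (0.916).

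Fcer1g and Tyrobp were each other's closest gene of all 5951 (r = 0.949). Fcer1g was next like Fcgr3 (0.885) and Aoah (0.857), and Tyrobp like Itgam (0.892) and Gsap (0.884). Fcgrt was the member least like the rest, with r from 0.191 to 0.55 with the other 6. Among the 4 Fcgr genes r ran from 0.695 (Fcgr2b with Fcgr4) to 0.864 (Fcgr3 with Fcgr4).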

How the data were processed

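Count matrices of 10x Genomics 3′ single-cell libraries were used as deposited: whole-number UMI counts per gene and barcode, which the authors made, per the labels' processing notes, with bcl2fastq 2.20.0 and Cell Ranger 3.1.0 on mm10, after barcode calling and without pooling of replicates. The 7 genes and the gene lists were chosen with earlier results of these data known.

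Barcodes were kept in the richest library of their tumor, gated by 8 markers a class (at least 3 detected, lead of 2), and summed per library. No doublet caller was run, and the lead of 2 leaves barcodes with markers of 2 classes ungated. Sums with at least 10 barcodes, in groups with at least 2 such libraries, were fitted in edgeR 4.0.16 (R 4.3.3) on counts of all genes with TMM scaling, 1 coefficient per group and robust quasi-likelihood tests, after a filter on low counts (filterByExpr with a minimum count of 10 over all barcodes and 3 in gates, and 15 in total). Calls needed an adjusted p below 0.1 and a fold above 1.3, the thresholds of the study. Fold changes are fitted values. DESeq2 1.42.0, RLE scaling, other filters, thresholds, gates, fits, thinning and leaving out each library were alternatives. Class orders were tested in Python 3.11.15 with scipy 1.17.1. The code was tested on simulated data. Named genes were all 7 members, at most 3 called genes per list and comparison in all CD45+ and macrophage-gated barcodes, ranked by size of change, and the 3 most similar genes of each member with at least 50 CPM in a class. Some genes that these rules name are not reported here. Marker genes, genes called in both tumors and Rac2 were named outside this rule after their values were seen. Positions are from GENCODE annotation of GRCm38, and promoters were found for 6 of the 7 genes. Depth was 1385711 to 43708746 kept UMIs a library. Intervals are exact binomial at 95%, and the limit for a count of 0 is 3 counts.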

Additional observations from a re-analysis of the deposited data

Results flagged for a closer look

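In 4 of 56 sets of 4 libraries, 1 library lay farther from the other 3 than Dixon's 95% limit for 4 values, which chance alone passes in about 1 of 20 sets. Over all CD45+ barcodes, Panc02-SIY_RT library 4 was high for Fcgr1, at 97.1 CPM with the nearest library at 53.6, and for Fcgr4, at 602 CPM with the nearest at 265. Panc02-SIY_NT library 4 was high for Tyrobp over all CD45+ barcodes, at 1061 CPM with the nearest at 892. In macrophage-gated barcodes Panc02-SIY_RT library 4 was high for Fcgr1, at 251 CPM with the nearest at 204.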

How the results depend on the processing

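No difference that was called, here or under an alternative, changed its sign: 90 of 3763 values of single genes had the other sign under an alternative, and 0 of these were called. All further numbers are genes called of the 7, and the cause of a change was not tested. The share of all genes called under each alternative is not given, so these counts cannot be set against it. In CD45+ barcodes, MC38 with radiation (1) gave 0 with no filter, with a log2 limit of 0.58, with 0.05 as the limit of adjusted p, with a minimum count of 3 or with all barcodes kept, 3 with only the MC38 groups and 2 with the replicate block. The interaction (0) gave 1 in DESeq2 and 2 with all barcodes kept. In macrophages, MC38 with radiation (3) gave 1 with the log2 limit of 0.58 or all barcodes kept. Panc02-SIY with radiation (1) gave 0 with adjusted p below 0.05, the log2 limit or only its own groups. It gave 2 with RLE scaling, a minimum count of 10, a lead of 1 marker or thinned sums. The replicate block or all barcodes kept gave 3, and DESeq2 gave 4. In monocytes, Panc02-SIY with radiation (0) gave 2 with no filter, and all barcodes kept gave 5 between untreated (2) and between irradiated tumors (3). In cDC, Panc02-SIY with radiation (0) gave 1 with no filter. In NK cells, untreated tumors (2) gave 1 with RLE scaling, DESeq2, a minimum count of 10 or the log2 limit. NK cells of irradiated tumors (2) gave 1 with the log2 limit or a lead of 1 marker and 0 with thinned sums. Leaving out 1 library gave 0 to 1 for MC38 with radiation, 3 to 5 for Panc02-SIY with radiation and 0 to 1 for the interaction in CD45+ barcodes, and 2 to 3 and 0 to 2 for radiation in MC38 and Panc02-SIY macrophages. It gave 1 to 3 and 3 to 5 for untreated and irradiated tumors in monocytes and 1 to 2 and 0 to 2 in NK cells. The replicate block moved no other count by over 1.5 times. The main fit did not pair libraries of the same number, since in no pair of groups were all 4 correlations of their deviations over 0.1. That limit does not exclude a pairing in the Panc02-SIY arms. Between these arms, r for the same number had a median of 0.361 in CD45+ barcodes (-0.159 to 0.751) and 0.011 in macrophages (-0.054 to 0.45). For unequal numbers the medians were -0.077 (-0.638 to 0.264) and 0.003 (-0.296 to 0.138). Unthinned, the mean share of macrophages with a UMI over the 4 groups was 62.5% for Fcgr1, 57.9% for Fcgr2b, 69.0% for Fcgr3, 74.8% for Fcgr4, 47.0% for Fcgrt, 94.6% for Fcer1g and 90.2% for Tyrobp, and the Fcgr2b share of Fcgr UMIs in MC38_RT was 33.1% with all barcodes kept. Of the orders of classes, 33 of 49 to 46 of 70 pairs passed. Comparisons of cDC between tumors could be fitted only with all barcodes kept (5 untreated, 2 irradiated) or a lead of 1 marker (4 and 3), and neutrophils of MC38 and the cell filter in NK cells gave no fit, with too few barcodes.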
